A study of Homo sapiens with 10 samples.

Results

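The genes described here encode the factors that start and extend protein synthesis on cytosolic ribosomes, with the enzymes named after them. They were taken by name from the deposited annotation: a gene qualified when any of its names was EIF or EEF followed by a digit and then letters or digits, and names ending in P and a number, the form used for pseudogenes, were left out. The rule gave 64 genes of the 57110 gene identifiers in the series, with 223 of its 99493 transcripts. Another 138 names matched the pattern but ended in P and a number. By its letter this also drops EIF4EBP1, EIF4EBP2 and EIF4EBP3, which are described below with the other genes of the pathway.

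RNA was sequenced on nanopore instruments in 7 established human ovarian cancer cell lines. COV362, COV504, SK-OV-3, OVMANA, OVTOKO and OVKATE had 1 library each, all run on the PromethION. IGROV-1 had 2 PromethION libraries and 2 from the MinION, a smaller instrument. No line carried a treatment or genetic change in the labels, all libraries came from total RNA purified on columns, and the labels do not say whether the IGROV-1 replicates were separate cultures, so p-values may measure technical spread only.

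Initiation begins when the cap-binding complex eIF4F (the cap-binding protein eIF4E, the helicase eIF4A and the scaffold eIF4G) recruits the small ribosomal subunit, which carries eIF1, eIF1A, eIF3, eIF5 and a ternary complex of eIF2, GTP and the initiator tRNA. After the start codon is found, eIF5B joins the large subunit. eEF1A then delivers each aminoacyl-tRNA, its exchange factor eEF1B (encoded by EEF1B2, EEF1D and EEF1G) recharges it with GTP, and eEF2 moves the ribosome along. Many mRNAs for ribosomal proteins and elongation factors begin with a C followed by a run of pyrimidines at the cap, the terminal oligopyrimidine (TOP) motif, through which mTOR and LARP1 control their translation and stability. Cancer cells often depend on high activity of these factors.

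The start regions are shown first, because the members that fell most in 1 of the lines include several with a pyrimidine run at the start. RefSeq start regions (GRCh38.p14) were matched by symbol for 51 of the 64 members. Each window holds 10 bases before the annotated start and 20 from it, 5′ to 3′, and capitals mark a C at the start base followed by at least 4 C or T on the same strand. The first 6 members below carry such a run and fell in OVKATE. EIF3K, EIF3M and EIF4A2 carry a run and did not pass the test there. EEF1G and EIF4E have no run, and EEF1G also fell in OVKATE (log2 change -2.14) while EIF4E was higher. Of the 12 members with a run 6 were lower there, and of the 37 tested members with another start 16 were. Among all genes tested 22.4% were lower in OVKATE, 215 of the 703 with a run and 1928 of the 8724 with another start among them.
EEF1A1 (chr6:73521013-73521042, minus strand): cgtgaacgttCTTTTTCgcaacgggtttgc
EEF2 (chr19:3985444-3985473, minus strand): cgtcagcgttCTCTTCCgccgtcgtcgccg
EEF1B2 (chr2:206159885-206159914, plus strand): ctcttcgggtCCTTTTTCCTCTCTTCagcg
EIF3D (chr22:36529147-36529176, minus strand): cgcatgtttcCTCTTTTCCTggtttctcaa
EIF3F (chr11:7987327-7987356, plus strand): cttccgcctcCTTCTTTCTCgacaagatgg
EIF4B (chr12:53006446-53006475, plus strand): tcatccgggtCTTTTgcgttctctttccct
EIF3K (chr19:38619178-38619207, plus strand): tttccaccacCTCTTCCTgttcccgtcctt
EIF3M (chr11:32583821-32583850, plus strand): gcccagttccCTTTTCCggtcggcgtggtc
EIF4A2 (chr3:186783567-186783596, plus strand): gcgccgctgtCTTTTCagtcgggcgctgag
EEF1G (chr11:62573872-62573901, minus strand): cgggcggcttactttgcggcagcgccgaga
EIF4E (chr4:98929114-98929143, minus strand): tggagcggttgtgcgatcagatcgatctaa
Of the 51 members in the table, 12 (23.5%) had a start of this kind, against 5.14% of all 27305 genes in the table and 4.07% of its 35116 starts. Besides the 9 shown they were EIF2A, EIF2D and EIF2S3. EEF1B2 has a further RefSeq start upstream without a run. A run of these letters is a description of the annotated start, and the start used in these cells was not measured.

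Levels are in CPM, the share of a library's counts that fell on a gene, scaled to the same total in each library. The deposited values rest on estimated counts and were not divided by length. Library totals lay between 1729782 and 3666224 counts. Differences between lines are log2 fold changes against IGROV-1 on the PromethION from edgeR's quasi-likelihood test, called at a Benjamini-Hochberg adjusted p under 0.05 over all genes tested. They use TMM scaling, so they can depart from the ratio of 2 CPM values. All 6 comparisons share the same IGROV-1 libraries, and each other line has 1 library that was assumed to vary like IGROV-1. Of the 64 members, 62 had enough counts to be tested, and EIF1AY and EIF4E1B did not. In 5 cases the deposited identifier joins a member with overlapping genes: EIF4A1 (with SENP3 and CD68 among others), EEF1G (with TUT1 among others), EEF1E1 (with TXNDC5 and BLOC1S5 among others), EIF6 (with AL121753.1) and EEF1AKMT2 (with FAM53B).

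The OVKATE library stood apart. Members held 1.30% of its counts, against 2.15% to 3.27% in the other 9 libraries, and the 75 cytosolic ribosomal protein genes held 6.59%, against 10.4% to 23.7%. Its count-weighted median transcript length was 1921 nt, the highest of the range of 1621 to 1921 nt. Mitochondrial transcripts took 13.02% and 15.2% of the counts of the IGROV-1 PromethION libraries and 2.82% to 6.35% of the others. The part of these values in the results below was not tested. The epithelial and Müllerian marker list (9 genes) summed to 466 to 9287 CPM per library, and in IGROV-1 KRT7 and CDH1 were at 0 in all 4 libraries and EPCAM at 1.54 CPM or below, while PAX8 reached at least 134 CPM. Leukocyte markers (4 genes, with CD3E at 0 in every library) summed to at most 5.34 CPM, endothelial markers (3 genes) to 0.534 to 25.8 CPM and fibroblast markers (5 genes) to 16.03 to 458 CPM, highest in COV362 and SK-OV-3 with COL1A2 at 429 and COL1A1 at 219 CPM there.

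**Figure D1:**
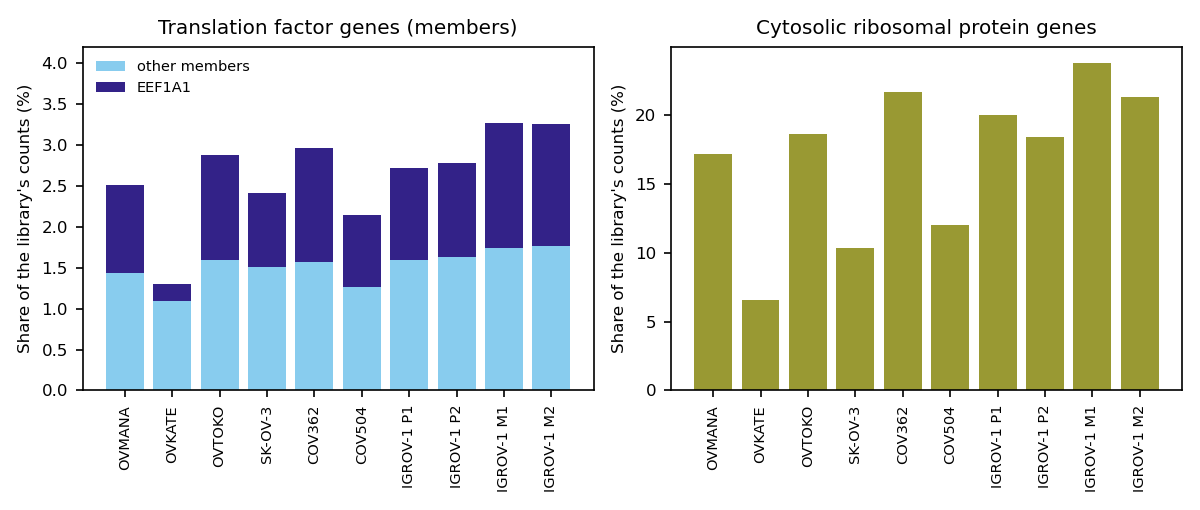
Share of each library's counts (%) on the members, split into EEF1A1 and all others (left), and on 75 cytosolic ribosomal protein genes (right), for the 10 libraries. OVKATE has the lowest bar in both panels, at 1.30% and 6.59%, and EEF1A1 makes up 15.6% of its member counts against 37.5% to 47.2% elsewhere.

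Most members differed among the lines. In the test among the 7 lines on the PromethION, 58 of 62 members were called, where 81.3% of all genes tested were. Without the OVKATE library, 51 members were called among the 6 other lines, where 78.4% of all genes were. The 4 members not called were EIF4G1, EIF4H, EIF2B2 and EEF1AKMT3. Between the lowest and the highest line the level of EIF2B2, a subunit of the exchange factor for eIF2, differed 1.53-fold, and that of EEF1A2, the second eEF1A gene, 163-fold.

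Against IGROV-1, 12 members were higher and 12 lower in OVMANA, where 35.4% of all genes tested were called (18.9% higher and 16.5% lower). In OVKATE 7 were higher and 29 lower (all genes 49.2%, with 26.8% higher and 22.4% lower). In OVTOKO 13 were higher and 11 lower (34.1%, 18.2% and 15.9%). SK-OV-3 had 14 higher and 20 lower (41.8%, 22% and 19.8%). COV362 had 18 higher and 15 lower (42.5%, 23.7% and 18.8%), and COV504 12 higher and 17 lower (43.5%, 24% and 19.6%). In OVKATE the lower members outnumbered the higher ones, while among all genes more were higher than lower. The median member change in OVKATE was -0.46 on the log2 scale against 0.01 over all genes, and in the other lines it lay between -0.11 and 0.09. Scaling by library totals alone moved the median of all genes in OVKATE to 0.31 and the split of members to 15 higher and 20 lower, and the members' median minus that of all genes was -0.48 with TMM and -0.47 with library totals. The split became 9 higher and 14 lower in OVTOKO under that scaling, and 17 each in SK-OV-3, where the median of all genes moved to 0.20. With DESeq2, fewer members and fewer of all genes were called in each line, for members 3 in OVTOKO (11.5% of all genes with an adjusted p) and 17 in OVKATE (17.4%). Without IGROV-1 MinION replicate 1 the members called fell from 24 to 12 in OVMANA, where 24.1% of all genes were then called, and from 24 to 11 in OVTOKO (22.2%). Each of MinION replicate 2 and PromethION replicate 2, when left out, took OVMANA to 15, and each of MinION replicate 2 and PromethION replicate 1 took OVTOKO to 14. In COV362 the count was 22 to 25 with 1 IGROV-1 library left out, from 33.

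OVKATE had the lowest level of the 7 lines for 26 of 62 members (41.9%), against 16.4% of all genes tested. With library totals in place of TMM it was 18 members (29.03%) against 11.2%. No other line was lowest for more than 9 members on the TMM scale. Across the 6 comparisons, 21 members were called higher without ever being called lower, 25 lower without ever being called higher, and 14 in both directions in different lines. Only EIF2B3 was higher in all 6 lines, and EEF2 and EIF5AL1 were lower in all 6. The share of all genes with these patterns was not computed, and the 6 comparisons share their IGROV-1 libraries. On the TMM scale IGROV-1 was the lowest line for 8.06% of members and 11.7% of all genes tested. It was the highest for 17.7% and 14.8%.

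**Figure D2:**
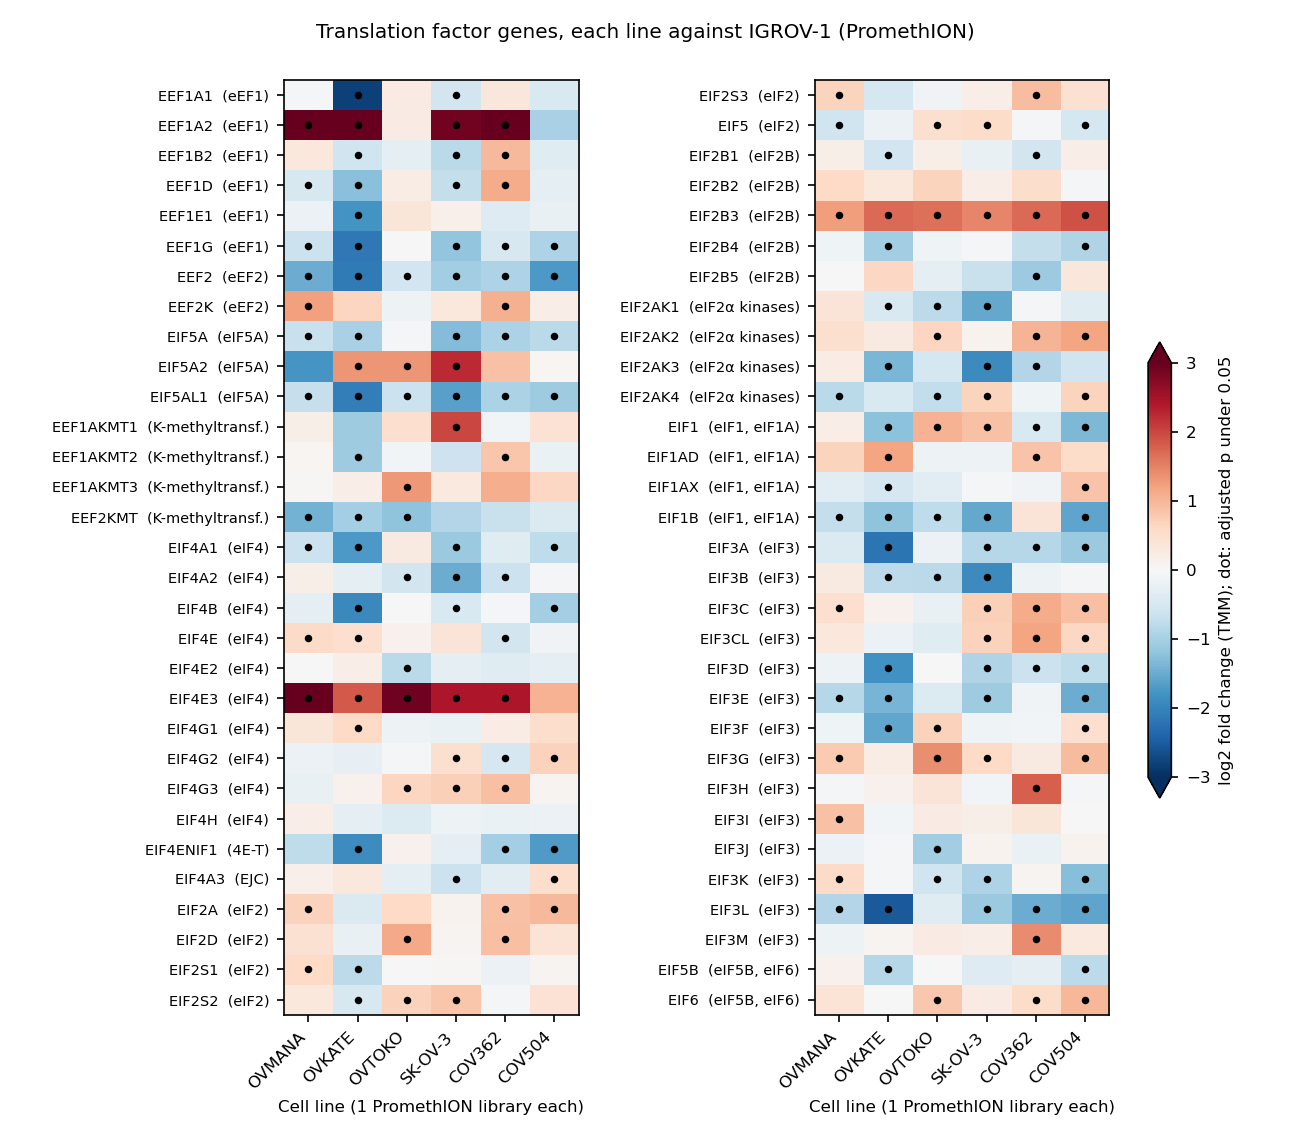
log2 fold change (TMM, colour, clipped at 3 in either direction) of the 62 members tested, in each of 6 lines (columns, 1 library each) against IGROV-1 PromethION (n = 2), with members ordered by role. A dot marks an adjusted p under 0.05; the OVKATE column holds 29 lower and 7 higher members.

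The elongation factor eEF1A had its main gene low in OVKATE and its second gene at very different levels among lines. EEF1A1 (chr6:73515750-73521721), the main eEF1A gene, was at 2027 CPM in OVKATE. In the other 5 single-library lines it was at 8774 CPM (COV504), 9081 (SK-OV-3), 10751 (OVMANA), 12799 (OVTOKO) and 14019 (COV362), and in IGROV-1 at 11337 and 11528 CPM on the PromethION and 15318 and 14838 CPM on the MinION. Only OVKATE lay far from the rest. The log2 change there was -2.80 (SE 0.19, 6.95-fold lower, edgeR adjusted p 1.6e-05). In SK-OV-3 it was -0.56 (adjusted p 0.028), and in the other 4 lines no change was called. The 38 named EEF1A1 pseudogenes held 0.495 to 12.98 CPM together.

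EEF1A2 (chr20:63488013-63499315), which encodes the form of eEF1A known from neurons and muscle and amplified in some ovarian tumours, was at 798 CPM in OVMANA, 270.5 in OVKATE, 80.0 in SK-OV-3 and 74.8 in COV362. It was at 10.4 CPM in OVTOKO, 4.89 in COV504, and 7.26, 11.2, 7.09 and 9.27 in the 4 IGROV-1 libraries. The lines fell into 4 with at least 74.8 CPM and 3 with at most 11.2 CPM, with nothing in between. The log2 changes were 6.49 (SE 0.22) in OVMANA, 4.57 (SE 0.22) in OVKATE, 2.88 (SE 0.25) in SK-OV-3 and 3.06 (SE 0.24) in COV362, with edgeR adjusted p of 6.9e-05 or lower. These errors are for each line against IGROV-1, and SK-OV-3 and COV362 were not tested against each other. EEF1A2 made up 11.8% of the counts of both eEF1A genes in OVKATE (95% Wilson interval 10.9% to 12.7%) and 6.91% in OVMANA (6.58% to 7.25%), against at most 0.873% in any other library.

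The coding sequences of these 2 genes were 78.1% identical over 1386 aligned bases in GENCODE 29, so reads can be told apart. The 60-base stretch with the most differences (coding bases 957 to 1016, 20 differences in capitals, GRCh38) shows how far apart they are.
EEF1A1 (chr6:73518367-73518426, minus strand): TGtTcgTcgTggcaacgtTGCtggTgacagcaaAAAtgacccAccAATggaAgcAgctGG
EEF1A2 (chr20:63490492-63490551, minus strand): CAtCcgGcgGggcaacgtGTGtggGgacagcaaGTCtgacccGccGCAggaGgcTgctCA

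**Figure D3:**
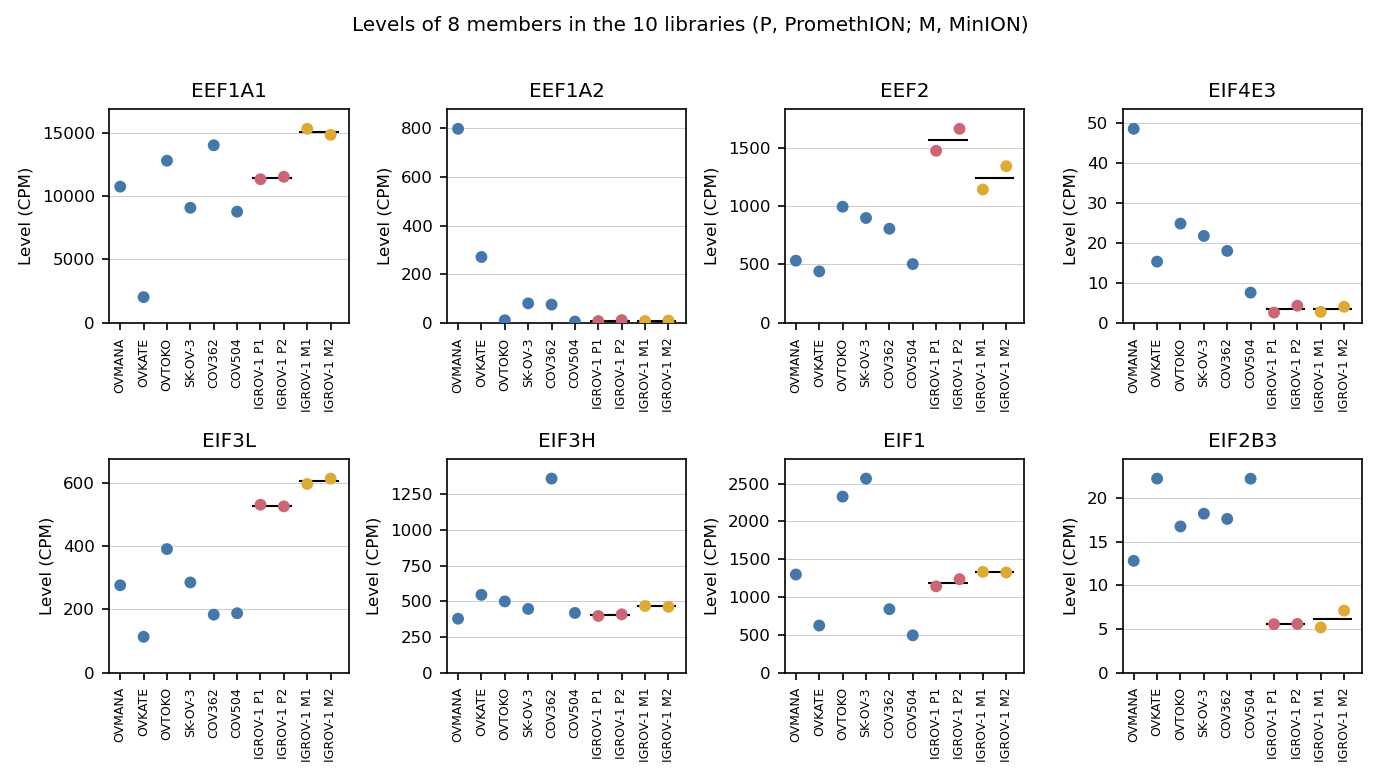
Levels (CPM, linear axes from 0) of 8 members in each of the 10 libraries; blue points are single libraries of 6 lines, red IGROV-1 on the PromethION, yellow IGROV-1 on the MinION, and black bars the means of 2. OVKATE is lowest for EEF1A1 (2027 CPM), OVMANA highest for EEF1A2 (798 CPM) and COV362 highest for EIF3H (1360 CPM).

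The exchange factor and eEF2 fell in OVKATE too. EEF1G, the gamma subunit of eEF1B, was at 493 CPM in OVKATE, 916 to 1649 CPM in the other 5 lines, and 1764 ± 55.1 CPM (SD, n = 2) in IGROV-1 on the PromethION. Its log2 change was -2.14 (SE 0.17, edgeR adjusted p 3.1e-05), it was lower in 5 of 6 lines, and its own transcript alone gave -2.17. EEF1D, the delta subunit, was at 213 CPM in OVKATE, 414 ± 3.21 CPM (SD, n = 2) in IGROV-1 and 875 CPM in COV362, with a log2 change of -1.26 in OVKATE and a fold of 2.18 in COV362. EEF1B2, the catalytic beta subunit, was higher in COV362 (1312 CPM, 0.98) and lower in SK-OV-3 (456 CPM, -0.81) and OVKATE (562 CPM, -0.59). All of the 6 genes grouped here as eEF1, EEF1E1 included, were called in OVKATE, 5 lower and EEF1A2 higher. Of all genes tested 22.4% were lower and 26.8% higher there. EEF1E1, a subunit of the multi-synthetase complex, was at -1.78 in OVKATE, and at -1.21 when its own transcripts were taken from the joined identifier. These transcripts held 25.6% to 52.0% of the identifier's counts per library.

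EEF2 (chr19:3976056-3985469), the translocase, was lower than IGROV-1 in every other line. Its levels were 441 CPM in OVKATE, 503 in COV504, 532 in OVMANA, 806 in COV362, 898 in SK-OV-3 and 994 in OVTOKO. IGROV-1 had 1474 and 1662 CPM on the PromethION and 1142 and 1341 on the MinION, so its 4 libraries did not overlap the others. The log2 changes ran from -2.13 (SE 0.18, edgeR adjusted p 4.3e-05) in OVKATE to -0.58 (SE 0.17, adjusted p 0.027) in OVTOKO. All 6 were called under RLE and library-total scaling, and 5 with DESeq2. EEF2K, the kinase that inhibits eEF2, was higher in OVMANA (28.9 CPM, 1.23) and COV362 (26.2 CPM, 1.07). The IGROV-1 PromethION libraries had 16.2 and 9.45 CPM of it, and OVKATE, at 24.7 CPM, was not called. EEF2KMT, which methylates eEF2, was lower in OVMANA (-1.42), OVTOKO (-1.21) and OVKATE (-1.03). It was at 9.08, 10.4 and 15.3 CPM in these lines against 30.3 and 20.6 CPM in IGROV-1. The EEF2KMT calls in OVMANA and OVTOKO were lost with DESeq2, when either MinION library was left out and with PromethION libraries only. The OVTOKO call was also lost without IGROV-1 PromethION replicate 1 and with no filter on low counts.

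eIF5A, which helps the ribosome past stretches such as polyproline and carries the modified residue hypusine, was lower than IGROV-1 in 5 of 6 lines. EIF5A was at 283 CPM in SK-OV-3, 301 in COV362, 360 in OVMANA, 363 in COV504 and 373 in OVKATE, against 613 and 584 CPM in IGROV-1. OVTOKO had 547 CPM and was not called. EIF5A2, the second gene, differed 19.9-fold, from 2.14 CPM in OVMANA to 42.5 CPM in SK-OV-3, where its log2 change was 2.23 (SE 0.35, edgeR adjusted p 0.0014). It was also higher in OVKATE (1.32) and OVTOKO (1.33), and in OVMANA the change of -1.77 did not pass the test (adjusted p 0.083). EIF5A2 made up 0.493% of the counts of the 3 eIF5A genes in OVMANA (4 counts) and 11.4% in SK-OV-3.

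EIF5AL1, an intronless copy of EIF5A, was at 35.6 to 73.4 CPM in 6 lines and 123 and 119 CPM in IGROV-1, and was called lower in all 6. With DESeq2 it was called in 2. The coding sequences of EIF5A and EIF5AL1 differ at 5 of 462 bases, so the split of reads between both genes is uncertain. The stretch that holds most of these differences (coding bases 74 to 133, 3 differences in capitals, GRCh38) is the following.
EIF5A (chr17:7309709-7309768, plus strand): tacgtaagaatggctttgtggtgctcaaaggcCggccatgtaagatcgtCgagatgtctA
EIF5AL1 (chr10:79512723-79512782, plus strand): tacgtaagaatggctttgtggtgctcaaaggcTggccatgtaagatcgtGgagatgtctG

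In the cap-binding group, 10 of 11 genes were tested. The highest line was 1.53-fold above the lowest for EIF4H and 14.2-fold for EIF4E3, with the others between 2.19-fold (EIF4G1) and 3.08-fold (EIF4B). EIF4E, the major cap-binding protein, was at 52.5 CPM in COV362 to 137 CPM in OVKATE and 76.5 and 81.2 CPM in IGROV-1. It was higher in OVMANA (0.58) and OVKATE (0.50) and lower in COV362 (-0.54).

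EIF4E3 (chr3:71675416-71754773), an atypical cap-binding family member, was at 48.6 CPM in OVMANA, 24.9 in OVTOKO, 21.8 in SK-OV-3, 18.02 in COV362, 15.3 in OVKATE and 7.56 in COV504. The 4 IGROV-1 libraries had 2.56, 4.30, 2.73 and 4.02 CPM, below every other line. These rest on 6 to 13 counts per IGROV-1 library and 17 to 91 in the other lines. The log2 change was 3.87 (SE 0.34, edgeR adjusted p 7.4e-05) in OVMANA and 2.92 (SE 0.39, adjusted p 0.00081) in OVTOKO, and 1.84 to 2.42 in OVKATE, SK-OV-3 and COV362, where the call was lost with DESeq2. In COV504 the change of 1.05 did not pass the test. EIF4E3 made up 16.6% of the counts of EIF4E, EIF4E2 and EIF4E3 in OVMANA (at least 13.7% by its Wilson interval) and 1.18% and 1.98% in IGROV-1 on the PromethION.

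The balance of the helicase genes differed between lines. EIF4A1 was at 347 CPM in OVKATE and 1065 CPM in OVTOKO, and was lower in OVKATE (-1.73, SE 0.17, edgeR adjusted p 9.0e-05), SK-OV-3 (-1.12), COV504 (-0.76) and OVMANA (-0.65). Its own transcripts alone gave the same calls. EIF4A2, its close relative, was at 221 CPM in SK-OV-3, 329 in COV362 and 343 in OVTOKO, all called lower, and at 543 to 581 CPM in OVKATE and OVMANA and 554 in COV504, against 537 and 530.5 in IGROV-1. Of the counts of EIF4A2 and EIF4A1's own transcripts, without the genes joined to the latter, EIF4A2 made up 65.7% in OVKATE (Wilson interval 63.4% to 67.9%), 54.7% in OVMANA, 52.9% in COV504 and 29.2% in OVTOKO. EIF4B, which stimulates the helicase, was at 95.95 CPM in OVKATE (-1.92) and 153 CPM in COV504 (-1.02), against 285 and 306 CPM in IGROV-1.

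Among the scaffolds, EIF4G1 was called in OVKATE alone (0.60, adjusted p 0.043 by edgeR). EIF4G2, which supports cap-independent initiation, was at 713 CPM in SK-OV-3 and 746 in COV504 and at 298 to 455 CPM in the other 4 lines, with changes of 0.48, 0.70 and, in COV362, -0.51. EIF4G3 was higher in COV362 (0.90), SK-OV-3 (0.72) and OVTOKO (0.65). EIF4ENIF1, which carries eIF4E into the nucleus and to repressed mRNAs, was at 5.78 CPM in COV504 (-1.71, SE 0.37, edgeR adjusted p 0.0061) and 5.93 in OVKATE (-1.89), and was also lower in COV362 (-1.02), against 17.1 and 18.9 CPM in IGROV-1, and the COV504 call was lost with DESeq2. EIF4A3, the helicase of the exon junction complex, was higher in COV504 (0.52) and lower in SK-OV-3 (-0.63).

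The 6 genes of eIF2 and the ternary complex had median log2 changes of 0.16 to 0.54 in 5 lines and -0.45 in OVKATE. EIF2S2, the beta subunit, was at 274 CPM in OVKATE (-0.48), 473.5 in OVTOKO (0.69) and 643 in SK-OV-3 (0.82). EIF2S3, the gamma subunit that binds GTP, was at 240 CPM in COV362 (0.94) and 196 in OVMANA (0.66), and EIF2S1, the alpha subunit that is phosphorylated under stress, was at 120 CPM in OVMANA (0.60) and 58.9 in OVKATE (-0.79). EIF5, which makes eIF2 hydrolyse GTP, ranged from 155 CPM in OVMANA (-0.61) to 419 CPM in SK-OV-3 (0.54). EIF2A and EIF2D, which can bring the initiator tRNA by other routes, were higher in 3 lines and 2 lines.

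EIF2B3, the gamma subunit of the exchange factor eIF2B, was at 12.8 CPM in OVMANA, 16.8 in OVTOKO, 17.6 in COV362, 18.2 in SK-OV-3 and 22.2 and 22.3 in COV504 and OVKATE. All 4 IGROV-1 libraries lay between 5.18 and 7.11 CPM, so the groups did not overlap. The levels rest on 13 to 23 counts per IGROV-1 library and 24 to 50 in the other lines. The log2 changes were 1.26 to 1.91, called in all 6 lines under TMM, RLE and library-total scaling and in none with DESeq2. In COV504, at 1.91 (SE 0.33), the edgeR adjusted p was 0.0020, and in OVTOKO, at 1.66 (SE 0.37), it was 0.0092. The other 4 subunits did not share this: EIF2B5 was lower in COV362 (-1.09, SE 0.30, adjusted p 0.018, lost with DESeq2), EIF2B4 lower in OVKATE (-1.03) and COV504 (-0.90), EIF2B1 lower in OVKATE and COV362 (both -0.56), and EIF2B2 was called in no line.

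The 4 eIF2alpha kinases, which halt initiation under heme loss, double-stranded RNA, endoplasmic reticulum stress and amino acid shortage, moved in both directions. In SK-OV-3 2 were lower and 1 higher, where 19.8% of all genes were lower and 22% higher. EIF2AK3 (PERK) was at 7.09 CPM in that line (14 counts) against 22.6 and 23.2 CPM in IGROV-1, a log2 change of -1.91 (SE 0.34, edgeR adjusted p 0.0026) that was not called with DESeq2. EIF2AK1 (HRI) was at 57.2 CPM there against 132 and 149 CPM (-1.52), and EIF2AK4 (GCN2) was higher at 109 CPM (0.66). EIF2AK2 (PKR) was highest in COV504, at 154 CPM against 63.2 and 65.7 CPM in IGROV-1 (1.18, SE 0.17, edgeR adjusted p 7.6e-04), and was also higher in COV362 (1.03) and OVTOKO (0.63).

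EIF1 (chr17:41688887-41692668), which guards the choice of the start codon, split the lines in both directions. It was at 2566 CPM in SK-OV-3, 2328 in OVTOKO, 1297 in OVMANA, 839 in COV362, 623 in OVKATE and 493 in COV504, with 1141 and 1236 CPM in IGROV-1 on the PromethION and 1332 and 1325 on the MinION. OVTOKO rose by 1.05 and SK-OV-3 by 0.88 on the log2 scale, while COV504 changed by -1.35 and OVKATE by -1.23. Their SE were 0.15 to 0.17, and COV362 was also lower (-0.46). EIF1B, its paralog, was lower in 5 lines (-1.58 to -0.71) and reached 136 CPM in COV362, where it was not called. EIF1AX, which works with it on the small subunit, was at 526 CPM in COV504 (0.86) against 272.5 and 276 CPM in IGROV-1.

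The eIF3 complex, the large scaffold on the small subunit, did not change as a unit. Of its 14 genes 4 were higher and 3 lower in COV362, 4 and 5 in COV504, 0 and 6 in OVKATE, 4 and 2 in OVMANA, 2 and 3 in OVTOKO, and 3 and 6 in SK-OV-3. The share called was 50%, 64.3%, 42.9%, 42.9%, 35.7% and 64.3% in these lines. Beside it stood 42.5%, 43.5%, 49.2%, 35.4%, 34.1% and 41.8% of all genes tested. EIF3L (chr22:37848868-37889407) was lower than IGROV-1 in 5 of 6 lines. Its levels were 113 CPM in OVKATE, 183 in COV362, 188 in COV504, 276 in OVMANA, 285 in SK-OV-3 and 391 in OVTOKO, against 528 ± 3.67 CPM (SD, n = 2) in IGROV-1. The log2 change was -2.52 (SE 0.17, edgeR adjusted p 1.5e-05) in OVKATE and -1.48 (SE 0.16, adjusted p 2.1e-04) in COV362.

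EIF3A (chr10:119033670-119080823), a core subunit, was at 82.1 CPM in OVKATE, 149 to 258 CPM in the other 5 lines and 305 ± 20.9 CPM (SD, n = 2) in IGROV-1. Its change in OVKATE was -2.20 (SE 0.18, edgeR adjusted p 3.9e-05). EIF3D, which can itself bind the cap of selected mRNAs, was at 101 CPM in OVKATE (-1.82) and EIF3F at 80.6 CPM (-1.56). EIF3E fell in 4 lines, from 820 and 744 CPM in IGROV-1 to 296 CPM in COV504 (-1.48). EIF3B, another core subunit, was lowest in SK-OV-3 at 39.5 CPM against 124 and 131 CPM in IGROV-1 (-1.92, SE 0.19, edgeR adjusted p 1.3e-04). EIF3J, a loosely bound subunit, was lower in OVTOKO at 72.8 CPM (-1.03, SE 0.22, adjusted p 0.0074), a call lost with DESeq2 and without IGROV-1 MinION replicate 1.

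EIF3H was at 1360 CPM in COV362, against 378 to 545 CPM in the other 5 lines and 397, 408.5, 467 and 461 CPM in IGROV-1. No other library came near it, and the log2 change was 1.80 (SE 0.14, edgeR adjusted p 4.9e-05). EIF3M was at 579 CPM against 192 to 301 CPM in the other 5 lines (1.41, SE 0.15). EIF3C and EIF3CL, whose coding sequences were identical over 2739 aligned bases, so that the split of reads between them is uncertain, were both higher in COV362 (EIF3CL by 1.18), COV504 (0.91 and 0.63) and SK-OV-3 (0.70 and 0.69). EIF3G was higher in 4 lines, most in OVTOKO (1.39). EIF5B, which joins the subunits, was lower in OVKATE (-0.84) and COV504 (-0.78). EIF6, which keeps free large subunits apart, was higher in COV504 (0.99), OVTOKO (0.80) and COV362 (0.56).

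The lysine methyltransferases of eEF1A rest on few counts. EEF1AKMT1 was at 1.98 to 4.89 CPM in 5 lines and 16.2 CPM in SK-OV-3 (2.00), EEF1AKMT3 was at 4.27 to 11.6 CPM and higher in OVTOKO (1.30), and EEF1AKMT2 was called lower in OVKATE (-1.07) under its joined identifier. Its own transcript there gave -0.20, which did not pass the test, and its own transcript in OVMANA was higher (1.21, edgeR adjusted p 0.039), where the joined identifier was not called. In COV362 both were called higher, the joined identifier by 0.83 (edgeR adjusted p 0.043) and the gene's own transcript by 1.42 (adjusted p 0.011).

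The start sequence and the change in OVKATE were set side by side. The 12 members with a pyrimidine run had a median log2 change of -0.56, with 6 lower and 0 higher, and the 37 tested members with another start had -0.24, with 16 lower and 6 higher. Over all genes tested, the 703 with such a run had a median of -0.23, with 215 lower and 140 higher, and the 8724 without it 0.02, with 1928 lower and 2337 higher. The share called, in either direction, was 50.5% of the 703 genes and 50% of the 12 members. It was 48.9% of the 8724 genes and 59.5% of the 37 members with another start, and 49.2% of all genes tested. Scaling by library totals put the medians of the members at -0.25 and 0.07. In SK-OV-3 7 of the 12 were lower and 0 higher, with a median of -0.51, against -0.05 for members with another start. Scaling by library totals made this 5 lower and 1 higher. Over all genes tested in SK-OV-3 the 703 with a run had a median of 0, with 178 lower and 154 higher, and the 8724 others also had a median of 0, with 1708 lower and 1904 higher. In COV362 5 of the 12 were higher and 3 lower, and of the 37 members with another start 9 were higher and 10 lower. Over all genes tested there 23.7% were higher and 18.8% lower. In OVMANA 3 of the 12 were higher and 1 lower (all genes 18.9% and 16.5%). The counts were 2 and 3 in OVTOKO (18.2% and 15.9%) and 2 and 4 in COV504 (24% and 19.6%). A list of 11 members set down from general knowledge as TOP mRNAs had 8 lower and 1 higher in OVKATE, with a median of -1.40, and 6 of the 7 in the RefSeq table had the run, EEF1G being the exception. Of 73 ribosomal protein genes tested, 67 were lower in OVKATE (median -1.88), 61 in SK-OV-3 (-1.04) and 52 in COV504 (-0.91). Among all genes 22.4%, 19.8% and 19.6% were lower in these lines.

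**Figure D4:**
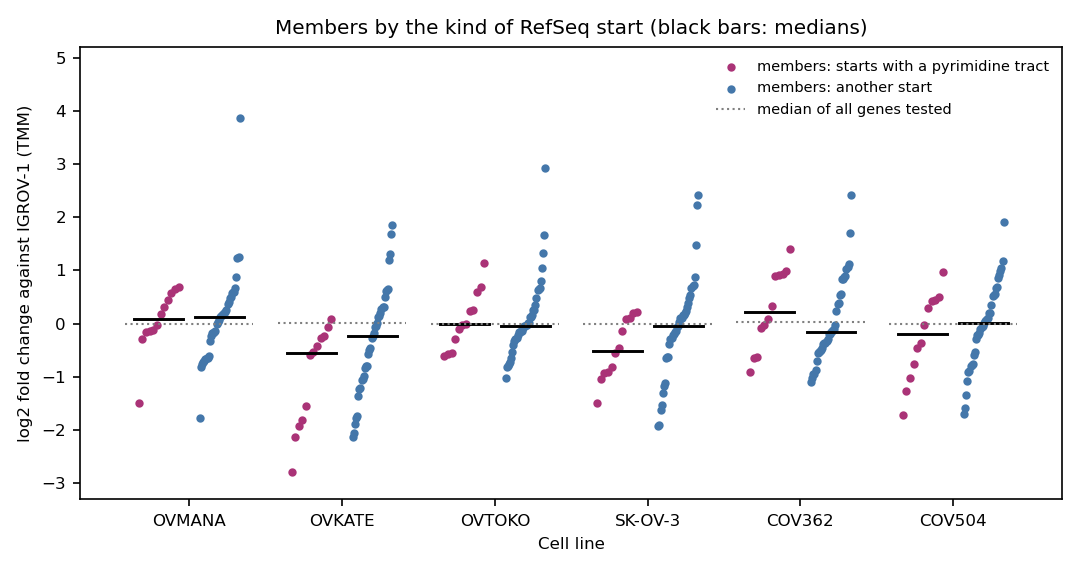
log2 fold change (TMM) of the members against IGROV-1 in each of 6 lines, for the 12 with a pyrimidine run at the RefSeq start (purple) and the 37 tested members with another start (blue); black bars are medians and dotted lines the median of all genes tested. In OVKATE the medians are -0.56 and -0.24, and in COV362 0.21 and -0.17.

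Position on the chromosome was compared by the median change of the other tested genes starting within 2 Mb. The members below are examples. In COV362, where EIF3H changed by 1.80, EIF3M by 1.41 and EEF1D 2.18-fold, these medians were 1.00 (7 genes), 1.20 (23 genes) and 0.97 (65 genes). In COV504 EIF1AX changed by 0.86 and its 12 neighbours by 0.94. EIF1B changed by -1.53 in SK-OV-3 and -1.58 in COV504, with 16 neighbours at -1.31 and -1.05. The median of these neighbours was also below 0 in OVKATE (-1.11), OVMANA (-0.84) and OVTOKO (-0.43), where EIF1B was called lower too. In COV362, where EIF1B was not called, it was 0.22. EIF5A changed by -1.31 in SK-OV-3 and -0.98 in OVKATE, and its 61 neighbours by -1.02 and -1.01. Other members lay far from the median of their neighbours, and of these EEF1A2 and EIF3A went further in the same direction. EEF1A2 in OVMANA stood at 6.49 with 49 neighbours at 1.44, EIF4E3 in OVMANA at 3.87 with 7 neighbours at -0.98, and EIF3A in OVKATE at -2.20 with 20 neighbours at -0.64. EIF4A2 in OVKATE stood at -0.28, which was not called, while its 19 neighbours had a median of 1.67. DNA copy number was not measured, and its part was not tested.

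In the rest of the pathway, 44 genes fixed as a list were tested. From 4 to 11 of them were higher and 6 to 12 lower in each line. The share called was 31.8% in OVMANA, 47.7% in OVKATE, 29.5% in OVTOKO, 43.2% in SK-OV-3, 31.8% in COV362 and 45.5% in COV504, beside 35.4%, 49.2%, 34.1%, 41.8%, 42.5% and 43.5% of all genes. PABPC1, the main poly(A)-binding protein that joins the mRNA's ends through eIF4G, was at 496 CPM in OVKATE to 1430 CPM in OVTOKO and at 2410 and 2959 CPM in IGROV-1. It was lower in all 6 lines (-2.74 to -0.83), also under RLE and library-total scaling and with DESeq2. MKNK2, a kinase of eIF4E, was lower in all 6 lines (-2.42 to -0.88) at 90.2 to 311 CPM against 405 and 571 CPM, and in 5 of them with DESeq2. On the MinION, IGROV-1 had 203 and 264 CPM of MKNK2, inside the range of the other lines.

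EIF4EBP1, the inhibitor that holds eIF4E away from eIF4G, was highest in SK-OV-3 at 328 CPM (2.26, SE 0.16, edgeR adjusted p 2.8e-05) and in OVTOKO at 160 CPM (1.53), against 59.8 and 57.1 CPM in IGROV-1. Of the 5 genes of the integrated stress response downstream of eIF2alpha, SK-OV-3 had 3 higher: TRIB3 at 200.1 CPM (4.46), DDIT3 at 206 CPM (2.72) and ATF4 at 500.4 CPM (1.02), against 9.40 and 6.01, 23.1 and 30.1, and 196 and 224.6 CPM in IGROV-1. In OVKATE 3 of the 5 were lower and 1, DDIT3, higher (1.01). Of all genes 22% were higher in SK-OV-3, and 22.4% were lower and 26.8% higher in OVKATE. Of the 6 genes of termination and recycling 4, GSPT2 among them, were higher and 0 lower in COV504. There 24% of all genes were higher and 19.6% lower. In each of the other 5 lines 1 to 3 of the 6 were higher and at most 1 lower. GSPT2, a form of the release factor eRF3, was at 0 in all 4 IGROV-1 libraries, OVTOKO and SK-OV-3 and at 11.8 to 17.2 CPM in the other 4 lines, at least 18.3-fold above the 0.643 CPM that 3 counts over both IGROV-1 PromethION libraries allow. DOHH, which completes hypusine on eIF5A, was higher in OVKATE at 52.4 CPM (1.75). DPH3, needed for the diphthamide residue of eEF2, was lower in 5 of 6 lines (-2.88 to -0.99).

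In IGROV-1 the 2 instruments were compared. None of 61 members was called by edgeR (0.817% of all 10041 genes were, 0.11% higher and 0.707% lower on the MinION) and none by DESeq2, and 10 had an unadjusted p under 0.05. With the replicate number as a block, 12 of the 61 were called, 8 higher and 4 lower on the MinION, where 19.7% of all genes were. There are only 2 pairs, and the labels do not tie the numbers to shared RNA. The log2 changes, MinION over PromethION, ran from -0.48 for EIF2B5 to 0.41 for EIF3E, with a median of 0.08 against 0.00 over all genes. For 32 of 61 members (52.5%) the 2 libraries of one instrument did not overlap those of the other, where 47.7% of all genes did not. EEF1A1 was at 11433 ± 135 CPM (SD, n = 2) on the PromethION and 15078 ± 339 CPM on the MinION, and EEF2 at 1568 ± 133 and 1242 ± 141 CPM, with edgeR adjusted p of 0.25 and 0.21.

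For transcript shares within members, between instruments 5 of 37 members with at least 2 tested transcripts were called (5.91% of all genes tested), and in at least 1 line against IGROV-1 6 of 41 were (8.9%). By line these were 2 in COV362 (2.75% of all genes), 1 in COV504 (2.54%), 4 in OVKATE (4.76%), 2 in OVMANA (2.79%), 2 in OVTOKO (1.31%) and 1 in SK-OV-3 (2.01%). The members called between instruments were EIF4H, EIF4G2, EEF1A1, EIF2AK3 and the joined EIF4A1. Those called in a line were EIF4H, EIF3M, EEF1B2, EEF1D and the joined EIF4A1 and EEF1G. The joined EIF4A1 was among the calls in COV362, OVKATE, OVMANA and OVTOKO, and was the only call in SK-OV-3. Its largest shift was in a SENP3 transcript in COV362, OVKATE and OVMANA, in CD68-201 in OVTOKO and in EIF4A1-201 in SK-OV-3. EIF4H, a partner of the eIF4A helicase, has 2 transcripts that differ by a coding exon. EIF4H-201 (744 coding bases) holds exon 5 of 7, at chr7:74190247-74190306, and the other (684 coding bases) skips it. The exon is 60 bases long, in capitals between 15 bases of its neighbours on either side in the spliced mRNA (GENCODE 29, plus strand).
EIF4H-201: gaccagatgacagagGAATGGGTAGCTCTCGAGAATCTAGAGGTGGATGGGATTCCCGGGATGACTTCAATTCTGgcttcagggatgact

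EIF4H-201 held 19.7% of EIF4H counts in both IGROV-1 PromethION libraries, and 33.7% and 37.3% in the MinION libraries. The other lines, all on the PromethION, had 27.9% (OVKATE), 29.3% (OVTOKO), 29.8% (SK-OV-3), 30.9% (COV362), 31.3% (COV504) and 39.7% (OVMANA). Each rests on 399 to 1348 counts of EIF4H. IGROV-1 on the PromethION was thus below all other libraries, its own MinION libraries included. The shift of 15.8 percentage points between instruments had an edgeR adjusted p of 0.011, and the difference between OVMANA and IGROV-1 one of 0.027. Both calls were lost when any 1 of the 4 IGROV-1 libraries was left out, with an adjusted p of up to 0.21 and 0.22, and the OVMANA call also with PromethION libraries only.

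EIF2AK3-201, the longer of 2 PERK transcripts, held 30.2% and 20.9% of EIF2AK3 counts in IGROV-1 on the PromethION and 4.50% and 4.07% on the MinION, on 53, 54, 83 and 94 counts. The adjusted p of 0.034 rose to as much as 0.46 when a library was left out or low transcripts were kept. EIF4G2-201 fell from 77.2% ± 3.63 to 70.4% ± 1.66 (SD, n = 2) from PromethION to MinION and the EEF1A1 transcript with the largest shift from 14.9% ± 0.10 to 12.5% ± 0.41. The EIF4G2 call was lost without any 1 library and with a looser count filter, and the EEF1A1 call without either PromethION library or MinION replicate 1. In the joined EIF4A1 identifier the read-through transcript AC016876.2-201 held 12.6% and 13.2% on the PromethION and 3.33% and 5.44% on the MinION, and this call was kept in every alternative.

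EIF3M-203, a form of EIF3M with 726 coding bases, fewer than in EIF3M-208, held 4.66% of EIF3M counts in OVTOKO and 22.7% and 23.9% in IGROV-1 on the PromethION. The other lines had 11.7% to 22.6%. The fall of 18.6 points in OVTOKO had an edgeR adjusted p of 0.0029 and was lost without either MinION library. EEF1B2-203 held 70.7% of EEF1B2 counts in OVKATE, 80.6% to 91.7% in the other 5 lines and 89.3% and 87.0% in IGROV-1, while EEF1B2-201, with the same coding length, held 22.7% in OVKATE and 7.38% and 9.90% in IGROV-1. The fall of 17.4 points had an adjusted p of 0.0071 and was lost without either IGROV-1 PromethION library, as was the EEF1D call in COV362, where EEF1D-202 fell by 6.14 points. In OVKATE the share of SENP3-201 in the joined EIF4A1 identifier rose by 9.01 points and that of a TUT1 transcript in the joined EEF1G identifier by 1.81, both shares of neighbouring genes and not of a factor; the second call was lost without any 1 IGROV-1 library, with PromethION libraries only and with a filter of 10 CPM.

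**Figure D5:**
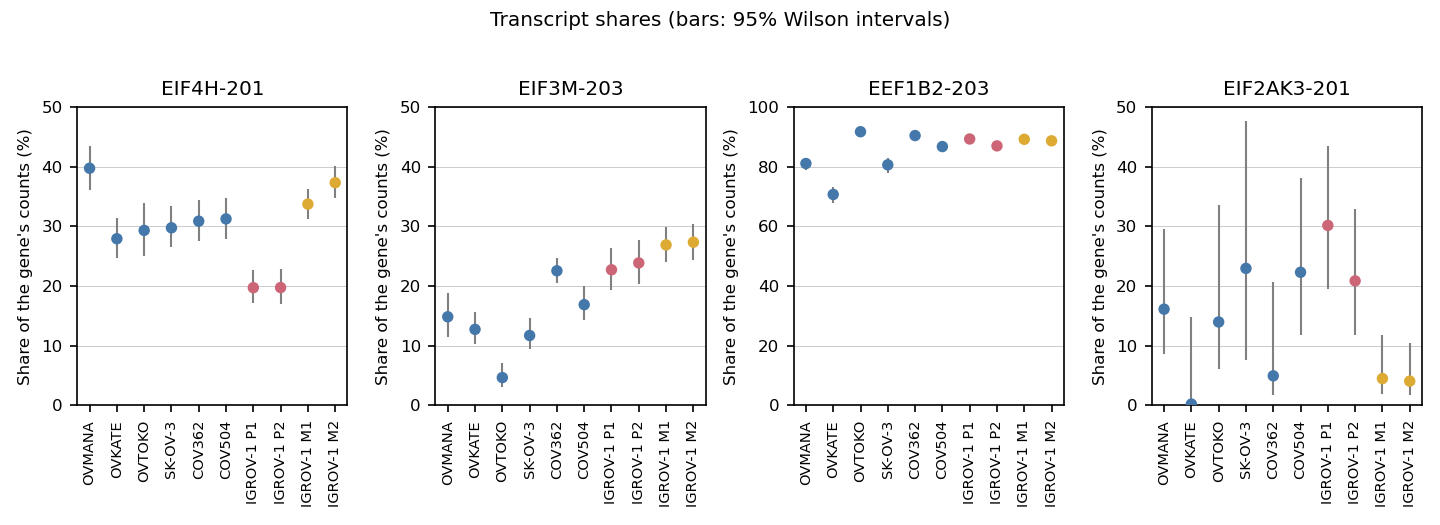
Share (%) of a gene's counts held by 1 transcript of EIF4H, EIF3M, EEF1B2 and EIF2AK3 in each of 10 libraries, with 95% Wilson intervals that cover counting error only (colours as for the level plots). EIF4H-201 is at 19.7% in both IGROV-1 PromethION libraries and at 27.9% or above in the other 8, and the intervals of EIF2AK3-201 are wide.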

How the data were processed

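Nanopore RNA sequencing of 7 ovarian cancer cell lines gave 10 libraries. Libraries were made with a ligation kit with end repair lengthened to 30 min, per the labels' protocols. The submitters' processing notes name minimap2 2.24-r1122 and GRCh38; which tool counted the reads, with which settings, annotation release and use of strand, is not given in the sources used here. Each deposited file holds 1 estimated count for every transcript, not always whole. The deposited TPM column equalled CPM to within 5.6e-11, so it was not divided by length.

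Estimated counts were summed per gene identifier and rounded. edgeR 4.0.16 (R 4.3.3) was used with TMM, the default expression filter by group, quasi-likelihood tests (two-sided) and Benjamini-Hochberg adjustment. The contrast of each line with the IGROV-1 PromethION pair came from 1 fit of all 10 libraries with 2 residual degrees of freedom, and that of the instruments from a fit of the 4 IGROV-1 libraries. The SE is the size of the log2 change divided by the square root of F. Transcript usage was tested with diffSpliceDGE and a Simes p per gene. The biological coefficient of variation was 11.7%. The scripts were tested on simulated data. Intervals and the floor of 3 counts for a value of 0 cover counting error only. Alternatives were DESeq2 1.42.0, other scalings and filters, left-out libraries, a replicate block and, added after seeing the data, split joined identifiers and a fit without OVKATE.

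Full statistics are given for the 2 largest called rises and falls per line among members with at least 10 CPM in the higher group, the 10 smallest p among lines, usage calls with the largest shifts, and fixed paralog pairs; further members are given by role. Members, lists and pathway genes were chosen with earlier results of these data known. Coding identity was computed with Biopython 1.88 on GENCODE 29 transcripts. No column of per-sample values was left out.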

Additional observations from a re-analysis of the deposited data

How the results depend on the processing

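Called members kept their direction in every alternative that called them. With DESeq2 the number of members called fell from 58 to 33 among the 7 lines, to 6 in OVMANA, 17 in OVKATE, 3 in OVTOKO, 16 in SK-OV-3, 10 in COV362 and 17 in COV504; the cause was not tested. The calls over all genes fell alongside, to 30.9% among lines, 12.3% in OVMANA, 17.4% in OVKATE, 11.5% in OVTOKO, 14.2% in SK-OV-3, 13% in COV362 and 14.7% in COV504. Leaving out 1 IGROV-1 library at a time gave 51 to 59 members among lines, 12 to 17 in OVMANA, 29 to 32 in OVKATE, 11 to 19 in OVTOKO, 29 to 32 in SK-OV-3, 22 to 25 in COV362 and 26 to 29 in COV504, with fewer samples behind the spread. Leaving out MinION replicate 1 gave the lowest counts in OVMANA (12) and OVTOKO (11). Each of MinION replicate 2 and PromethION replicate 2 took OVMANA to 15, and each of MinION replicate 2 and PromethION replicate 1 took OVTOKO to 14. PromethION libraries only gave 15 in OVTOKO. Usage calls between instruments numbered 3 with at least 5 counts in 1 library, 8 with the F-test per gene, and 1 to 2 with a library left out; in at least 1 line they numbered 12 with the F-test and 2 to 3 with a library left out.

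With the replicate number as a block, 12 of 61 members were called between instruments, 8 higher and 4 lower on the MinION, where none was without it; over all genes 19.7% were called with the block and 0.817% without. Usage calls stayed at 5. Libraries with the same number deviated together (Pearson r 0.563 across 6345 genes, a description), but there are only 2 pairs and the labels do not tie the numbers to shared RNA.

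All line comparisons rest on single libraries against 2 of IGROV-1. Joined identifiers, near-identical copies and unstated use of strand limit what EIF4A1, EEF1G, EEF1E1, EEF1AKMT2, EIF6, EIF5A, EIF5AL1, EIF3C and EIF3CL show.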
